A study of Saccharomyces cerevisiae Sigma1278b with 62 samples.

Results

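Asc1 is the yeast RACK1, a WD-repeat propeller protein that sits on the head of the small ribosomal subunit. asc1-D109Y carries a point mutation in ASC1 that came out of a screen for defects in no-go decay, the quality control of stalled ribosomes. Without crosslinking the mutant protein co-sediments poorly with ribosomes. After formaldehyde crosslinking in cells the authors found it with polysomes, and they hold its binding in vivo to be likely closer to normal. Strains with this allele were compared with wild type (WT) in glucose by ribosome footprint profiling, which counts the mRNA fragments that ribosomes protect (FP), and by sequencing of fragmented poly(A)-selected RNA from the same cell extracts (total RNA). The ratio of FP to total RNA is the translation efficiency (TE). The libraries were chosen by their labels as the asc1-D109Y and WT libraries made by adapter ligation from glucose cultures, which gave 2 FP and 2 total RNA libraries of each strain, 8 libraries in all. They belong to an experiment of 24 libraries from 6 strains, in a series of 62 samples. The other strains, asc1-M1X, asc1-Null, rpl23b-Null and rpp1a-Null, were grown in the same medium and are read further below.

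All 8 libraries came from Saccharomyces cerevisiae of the Sigma1278b background, grown to mid log phase at 30 °C in rich YPAD medium with 2% glucose and exposed to 0.1 mg/ml cycloheximide for 2 min before harvest. The 2 asc1-D109Y cultures were 2 separate isolates of the allele, made by replacing a URA3 marker at the ASC1 locus, and both WT cultures were of 1 strain. Numbers of cells and RNA per cell cannot be told apart in such bulk libraries, and every value below is relative to the rest of its library. The allele is a single codon change, so read counts per gene give no check of the genotype. Summed over a list, 8 a-specific genes had 9202 to 18583 reads per library and 5 alpha-specific genes 232 to 719, in both strains alike. Single genes of the lists varied. The receptor gene STE2, which marks MATa cells, had 3866 to 8016 reads and the a-specific gene ASG7 had 23 to 35. The alpha-factor gene MF(ALPHA)1 had 0 to 7, and the alpha-specific gene SAG1 had 312 to 363 in total RNA. FP libraries held 6658852 to 8696006 counted reads and total RNA libraries 5952325 to 7893947.

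Genes of amino acid synthesis in yeast answer to Gcn4, a transcription activator whose own mRNA is kept from translation by short upstream reading frames until ribosomes scan past them. Purine and one-carbon genes, among them the glycine cleavage genes GCV1, GCV2 and GCV3, are driven by Bas1 and share folate cofactors with amino acid synthesis. SNZ1 and SNO1 are a divergently transcribed pair that encodes the enzyme making the vitamin B6 ring.

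The first question was which genes differed between asc1-D109Y and WT in ribosome footprints. Of 4880 genes tested, 47 passed an adjusted p of 0.05 (quasi-likelihood test of edgeR, adjusted by Benjamini-Hochberg over all genes tested, as for every adjusted p below). These are 0.963% of the genes, 43 higher (0.881%) and 4 lower (0.082%) in asc1-D109Y. SNZ1 and SNO1 rose most in FP, and the genes that rose also included GCV1, GCV2 and GCV3, genes of purine, histidine, arginine and lysine synthesis, and ASC1 itself. Of the 50 genes called in FP or total RNA, 28 are in one of the gene lists read here and 22 in none. In total RNA 18 of 5149 genes passed (0.35%), 17 higher (0.33%) and 1 lower (0.0194%), and 15 of these were also among the FP genes. The number of FP genes was 111 without WT replicate 1 and lay between 39 and 65 without any other culture. The number of total RNA genes was 63 without WT replicate 1, 43 without WT replicate 2, 4 without asc1-D109Y replicate 1 and 3 without asc1-D109Y replicate 2, in fits where the lone culture is taken to vary like the other strain.

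**Figure D1:**
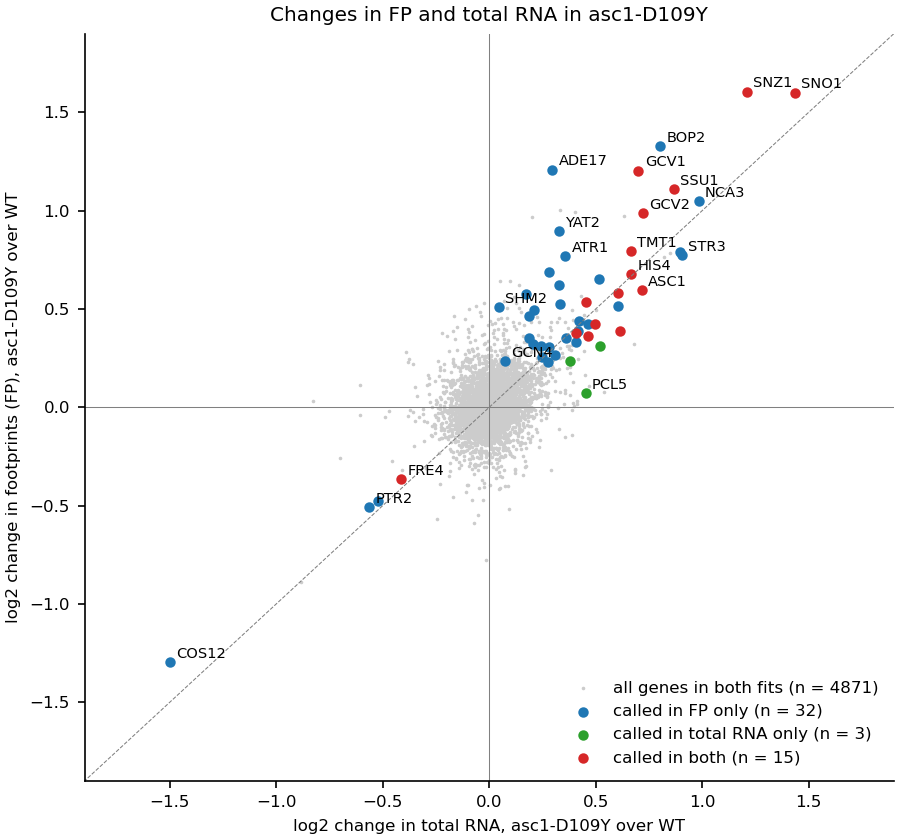
The log2 change of each gene in asc1-D109Y over WT is plotted in FP (vertical axis) against total RNA (horizontal axis), with 4871 genes in grey and the called genes in colour. Most called genes are in the upper right, some near the dashed line of equal change and others such as ADE17 well above it, and FRE4, PTR2, TIR1 and COS12 are at the lower left.

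All 47 FP genes changed in the same direction in total RNA, where 2885 of all 4871 genes did so. Among the 43 that rose in FP, the median log2 change was 0.52 in FP and 0.42 in total RNA, and 38 had an unadjusted p under 0.05 in total RNA. In 28 of the 47 the change was larger in FP than in total RNA. The genes were picked by passing in FP, which favours larger values there. These sizes therefore do not show that FP changed more than total RNA. Both mutant libraries lay outside the range of both WT libraries for every one of the 47 genes in FP and every one of the 18 in total RNA, as they did for 1877 and 1743 of all genes tested. Changes across the genome were small, with a median absolute log2 change of 0.07 in FP and 0.062 in total RNA, and 49 genes above 0.5 in FP.

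ASC1 (YMR116C) was the gene with the highest read count among those that rose. Its normalized reads in FP, which are counts divided by the median-ratio size factor of the library, were 37814 and 34997 in WT and 55394 and 54245 in asc1-D109Y. In total RNA they were 25314 and 24617 in WT and 42187 and 39521 in the mutant. Both mutant cultures were thus above both WT cultures in both kinds of library, and the strains lay apart likewise for every gene called in both. FP rose by 0.60 (log2, SE 0.049, adjusted p = 4.38e-05) and total RNA by 0.72 (SE 0.055, adjusted p = 0.000941), so that the TE change was -0.12 (SE 0.074, adjusted p = 0.998). The paper's Western blot put the mutant protein near the WT level, and these read counts do not measure Asc1 protein. The intron of ASC1 holds the small nucleolar RNA gene SNR24.

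SNZ1 and SNO1 had the largest increases. SNZ1 had 694 and 711 normalized FP reads in WT and 2217 and 2041 in asc1-D109Y, a 3.04-fold increase (log2 1.61, SE 0.065, adjusted p = 4.39e-08). Its total RNA went from 1096 and 1125 to 2719 and 2414, 2.31-fold (log2 1.21, adjusted p = 0.00022). The replicates of each strain lay close together and the strains far apart. SNO1, the glutaminase partner of SNZ1, had 62.0 and 75.6 FP reads in WT and 222 and 196 in the mutant, a 3.03-fold increase (SE 0.155 on the log2 scale, adjusted p = 0.000158), and rose 2.70-fold in total RNA (adjusted p = 0.00558). TPN1, the importer of pyridoxine, a form of vitamin B6, is not in the list and went from 558 and 534 to 706 and 680 in FP (log2 0.35, adjusted p = 0.049), a call that was lost in 8 of 12 alternative analyses (adjusted p up to 0.347). PDX3, an oxidase that makes the active form of the vitamin, had a change of 0.17 (adjusted p = 0.30). SNZ1 and SNO1 were 2 of 12 tested members of a list of vitamin B6 and thiamine genes (0.881% of all genes were called higher), the others of which did not pass, and the list median was 0.13 in FP against -0.00060 for all genes.

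The glycine cleavage system breaks glycine down in mitochondria and hands its one-carbon unit to folate. GCV1, its T subunit, had 459 and 500 normalized FP reads in WT and 1189 and 1011 in asc1-D109Y, a 2.30-fold increase (log2 1.20, SE 0.089, adjusted p = 2.81e-05). GCV2, the P subunit, had 385 and 412 against 852 and 721 (log2 0.99, SE 0.093, adjusted p = 0.000147). GCV3, the H subunit, had 1077 and 1053 against 1458 and 1385 (log2 0.42, SE 0.061, adjusted p = 0.00366). The groups did not overlap for any of these subunits, as for all 47 genes called in FP and 1877 of the 4880 tested. The step in FP was larger for GCV1 and GCV2 than for GCV3. LPD1, the L subunit that is shared with other dehydrogenase complexes, had a change of 0.05 (adjusted p = 0.85). In total RNA GCV1 and GCV2 rose by 0.70 and 0.72 (adjusted p = 0.00636 and 0.023), and GCV3 had a change of 0.46 (adjusted p = 0.094). SHM2, the cytosolic serine hydroxymethyltransferase, had 2291 and 2214 FP reads in WT and 3365 and 3019 in the mutant (log2 0.51, SE 0.059, adjusted p = 0.000832). Its mitochondrial counterpart SHM1 had an FP change of -0.06 (adjusted p = 0.81), and MTD1, which oxidizes methylene-folate, one of 0.45 (adjusted p = 0.085). In the list of one-carbon and glycine genes 4 of 21 tested members rose in FP and none fell, against 0.881% of all genes called higher. Values were above 0 for 17 of 21, against 49.7% of all genes, and the list median was 0.09.

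In purine synthesis 2 of 17 tested genes rose in FP, against 0.881% of all genes. ADE17, an isozyme of the final steps to IMP, had 509 and 437 FP reads in WT and 1181 and 982 in asc1-D109Y, 2.31-fold (log2 1.21, SE 0.099, adjusted p = 4.38e-05). Its isozyme ADE16 had a change of -0.02 (adjusted p = 0.96). ADE1 had 1063 and 1007 against 1512 and 1448 (log2 0.52, SE 0.062, adjusted p = 0.000931). No purine gene passed in total RNA without a replicate block, where 0.35% of all genes did. The list median was 0.13 in FP and 0.07 in total RNA.

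A further 8 calls in FP belonged to amino acid synthesis, where the lists of histidine, arginine, lysine, branched-chain and aromatic amino acid genes hold 50 tested members between them. Of these 50 genes, 8 rose in FP and none fell, against 0.881% of all genes called higher, and 4 rose in total RNA. Called or not, 41 of 50 members had values above 0 in FP (median 0.10) and 43 of 50 in total RNA (median 0.15), where 49.7% and 50.5% of all genes did. Histidine and arginine genes had the highest medians, 0.26 and 0.20 in FP, and no branched-chain gene passed (median 0.03).

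HIS4, a trifunctional enzyme of histidine synthesis, rose most in this group. It had 5626 and 5015 normalized FP reads in WT and 8936 and 8000 in the mutant (log2 0.68, SE 0.064, adjusted p = 0.000147) and a change of 0.67 in total RNA (adjusted p = 0.00681). HIS5, the histidinol-phosphate aminotransferase, had 2988 and 3058 against 4135 and 3934 (log2 0.42, adjusted p = 0.000955), and HIS7 1374 and 1469 against 1734 and 1790 (log2 0.31, adjusted p = 0.0245). HIS1, the first enzyme of the pathway, had a change of 0.21 (adjusted p = 0.084). HIS5 also rose in total RNA (0.50, adjusted p = 0.00681).

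ARG1, the argininosuccinate synthetase, had 14329 and 14333 FP reads in WT and 19041 and 18076 in asc1-D109Y (log2 0.38, SE 0.046, adjusted p = 0.00114), with a rise of 0.41 in total RNA (adjusted p = 0.0193). ARG7, an acetyltransferase that makes ornithine, rose by 0.26 in FP (adjusted p = 0.0245). CPA1, whose translation is under control of an arginine attenuator peptide, had a change of -0.05 (adjusted p = 0.91) and was the single arginine gene of 10 below 0. LYS1, the last enzyme of lysine synthesis, rose by 0.36 in FP (adjusted p = 0.00289) and by 0.47 in total RNA (adjusted p = 0.0148). ARO8, an aromatic aminotransferase, rose by 0.23 in FP (adjusted p = 0.0443), a call lost in 6 of 12 alternatives.

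GCN4 itself stood near the threshold. It had 3339 and 3265 FP reads in WT and 3915 and 3819 in asc1-D109Y, and 11226 and 11398 against 12022 and 11712 in total RNA. The FP rise was 1.18-fold (log2 0.23, SE 0.049, adjusted p = 0.0443), the total RNA change was 0.07 (adjusted p = 0.985) and the TE change 0.16 (SE 0.067, adjusted p = 0.998). The FP call was lost in 7 of 12 alternative analyses, with an adjusted p of up to 0.312, while the change stayed between 0.22 and 0.25. PCL5, the cyclin that marks Gcn4 for destruction, rose by 0.45 in total RNA (adjusted p = 0.0309), where it had 2281 and 2542 reads against 3297 and 3294. In FP it had a change of 0.07 (adjusted p = 0.92).

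**Figure D2:**
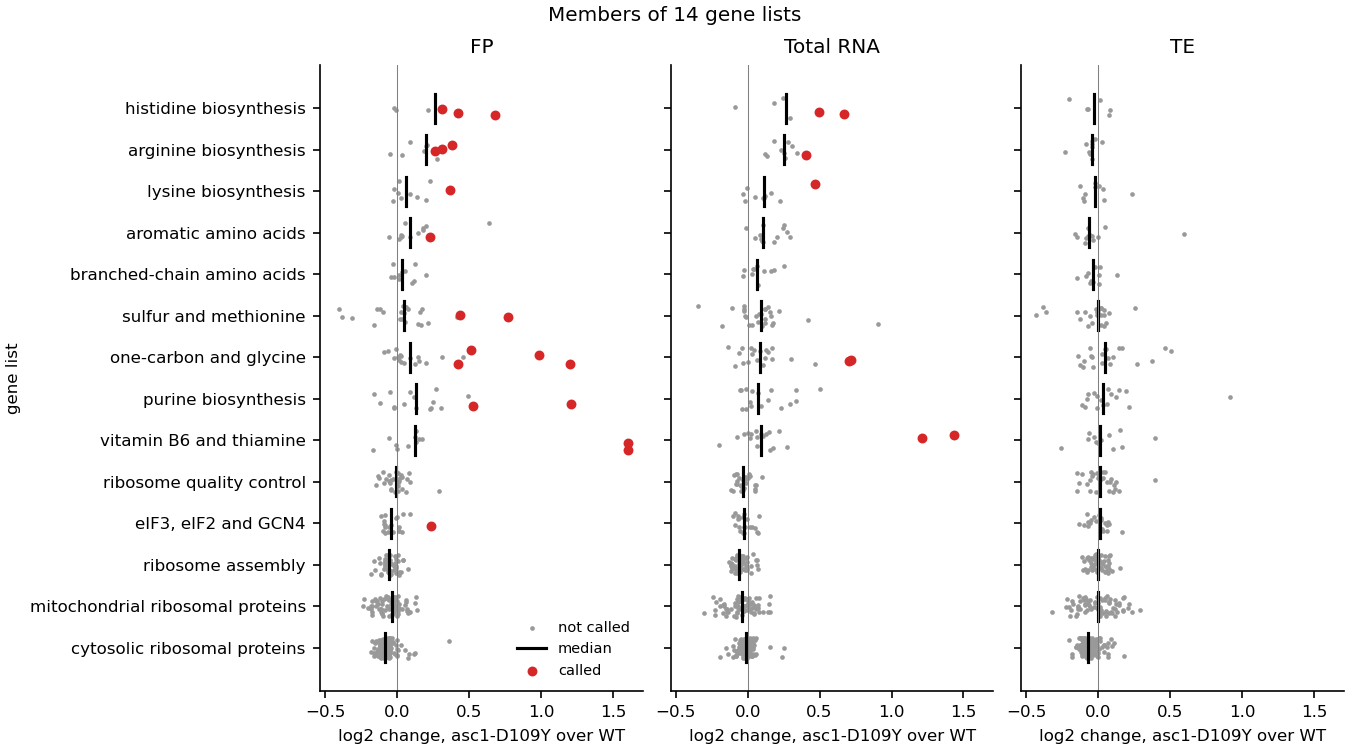
Each point is the log2 change of 1 member of a gene list in asc1-D109Y over WT in FP (left), total RNA (middle) and TE (right), with called members in red and the list median as a black bar. Red points stand in the lists of amino acid, one-carbon, purine and vitamin B6 genes and at GCN4, and the 132 cytosolic ribosomal protein genes form a narrow cloud with a median of -0.09 in FP.

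Sulfur genes gave 2 calls of 24 tested in FP, both higher, against 0.881% of all genes. STR3 and STR2, which act on the way from cysteine through cystathionine to homocysteine, rose by 0.77 (adjusted p = 0.0406) and 0.44 (adjusted p = 0.0406). STR3 had low counts, 74.4 and 86.0 normalized FP reads in WT, and its call was lost with all 6 strains in the fit. The STR2 call was lost with DESeq2 and with median-ratio scaling. SSU1, the sulfite exporter, which the list does not hold, had 174 and 127 FP reads in WT and 349 and 289 in the mutant (log2 1.11, SE 0.144, adjusted p = 0.00175), and rose by 0.87 in total RNA (adjusted p = 0.004). No other member of the list passed in FP, and none passed in total RNA, where 0.35% of all genes did.

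The remaining genes that rose fell into no single list. Metabolic and transport genes among them were TMT1, a methyltransferase of trans-aconitate (log2 0.79 in FP and 0.67 in total RNA), SRY1, a dehydratase of hydroxyaspartate (0.58 and 0.60), ADH5, an alcohol dehydrogenase (0.54 and 0.45), and YHI9 (0.39 and 0.61), all called in both. YAT2, a carnitine acetyltransferase (0.90), ATR1, a drug exporter (0.77), HXK1, a hexokinase (0.62), NCE103, the carbonic anhydrase (0.58), and GDH2, which releases ammonium from glutamate (0.50), were called in FP alone. So were ZTA1 (0.52), SNA2 (0.47, lost in 8 of 12 alternatives), BDH1, a butanediol dehydrogenase (0.39), ARO5 (0.33) and MPC2, a subunit of the mitochondrial pyruvate carrier (0.26). BOP2 (1.33), NCA3 (1.05), FMP23 (0.79), YLR152C (0.69) and TMA10 (0.65) rose in FP from low counts, with 40.9 to 244 normalized reads per WT library. YAT2 (79.4 and 98.4), ATR1 (156 and 194) and SNA2 (217 and 208) had WT counts in the same range. The YAT2 call was lost with DESeq2. Heat shock genes contributed HSP78, a mitochondrial disaggregase (0.35), and UBI4, the polyubiquitin gene (0.32), 2 of 26 tested against 0.881% of all genes. UBI4 is a run of ubiquitin repeats, so reads with a single place of alignment cover it in part. RIB5, the riboflavin synthase (0.38), and PEX21, which helps import peroxisomal enzymes (0.52), rose in total RNA.

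The genes called lower were 4 in FP and 1 in total RNA. FRE4, a ferric reductase, had 1299 and 1445 normalized FP reads in WT and 1012 and 1115 in asc1-D109Y (log2 -0.37, SE 0.074, adjusted p = 0.0397), and was the single gene called lower in total RNA (-0.41, adjusted p = 0.0309). PTR2, the importer of di- and tripeptides, had 509 and 451 against 326 and 345 (-0.51, adjusted p = 0.0182), and TIR1, a cell wall mannoprotein, 395 and 419 against 273 and 314 (-0.48, adjusted p = 0.0406). The groups did not overlap for any of these, as for every gene called in FP. COS12 had 52.1 and 64.2 against 21.2 and 26.6 (-1.29, SE 0.271, adjusted p = 0.0467). COS12 belongs to a family of similar subtelomeric genes, so its counts depend on which reads align to a single place. With scaling by library size alone 1 of the genes called lower in FP stayed under the threshold, PTR2, and with all 6 strains in the fit none did. The FP calls of FRE4 and TIR1 were also lost without asc1-D109Y replicate 1, and that of COS12 with median-ratio scaling.

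**Figure D3:**
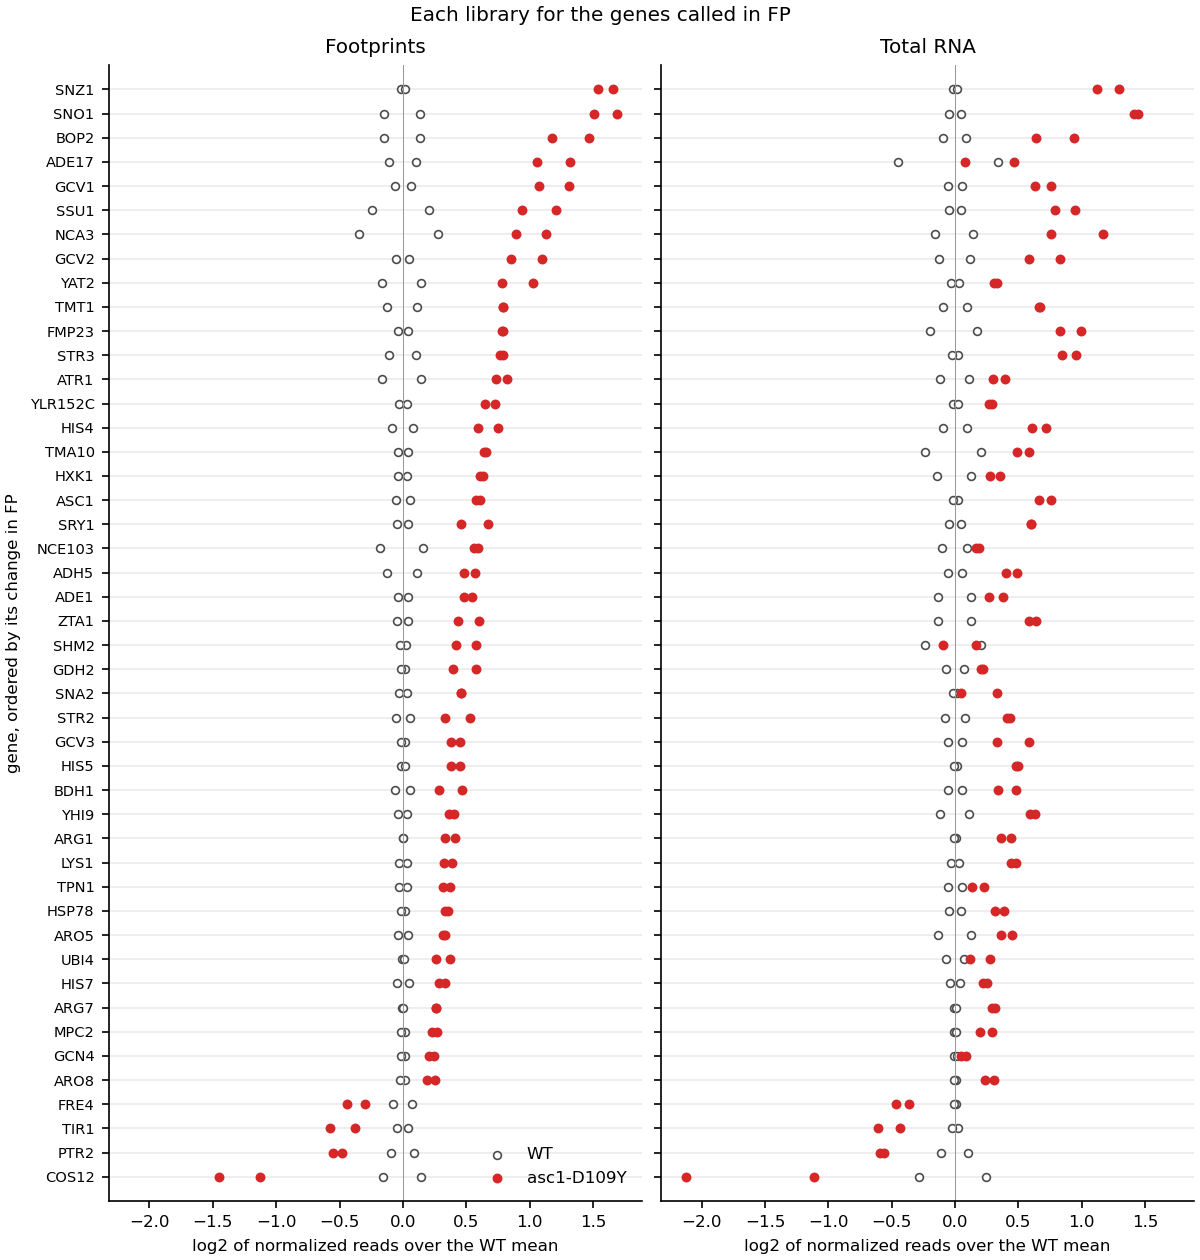
Each row is 1 of 46 of the 47 genes called in FP, and points show the log2 of its normalized reads over the WT mean in each WT library (open) and each asc1-D109Y library (red), in FP (left) and total RNA (right). The red points stand clear of the open ones for every gene drawn in FP, and in total RNA ADE17 and SHM2 have WT libraries that lie far apart and overlap the mutant.

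The next question was whether any gene changed in TE. Of 4871 genes tested for a difference between the FP and total RNA changes, 0 passed with edgeR, 129 had an unadjusted p under 0.05, and DESeq2 gave 0 (32 unadjusted). FP and total RNA of one number came from the same extract. With a term for the culture, 4 genes passed (0.0821%), all higher in asc1-D109Y, and 331 had an unadjusted p under 0.05. These were ADE17, SNZ1, SHM2 and GCV1, 3 of them in one-carbon and purine metabolism and all 4 among the genes that rose in FP.

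ADE17 had a TE of 0.281 and 0.418 in the WT cultures and 0.601 and 0.652 in the mutant cultures (log2 0.88, SE 0.112, adjusted p = 0.000472 with the culture term, 0.998 without). SHM2 went from 0.442 and 0.578 to 0.667 and 0.716 (log2 0.45, SE 0.083, adjusted p = 0.0336 with the term). GCV1 went from 0.697 and 0.817 to 1.11 and 1.03 (0.49, adjusted p = 0.035), and SNZ1 from 0.633 and 0.632 to 0.815 and 0.845 (0.40, adjusted p = 0.0249). Both mutant cultures were above both WT cultures for all 4 genes, which the test picked on these values, and TE did not overlap between the strains for 1773 of all 4871 genes. The WT cultures differed most for ADE17 and SHM2, whose total RNA was 1808 and 1045 and 5180 and 3828 normalized reads in WT, against 1966 and 1506 and 5045 and 4218 in asc1-D109Y. For both genes total RNA overlapped between the strains (changes of 0.30 and 0.05, adjusted p = 0.985 and 0.998 without a replicate block), while within the same-numbered pairs ADE17 differed by 0.12 and 0.53 and SHM2 by -0.04 and 0.14.

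**Figure D4:**
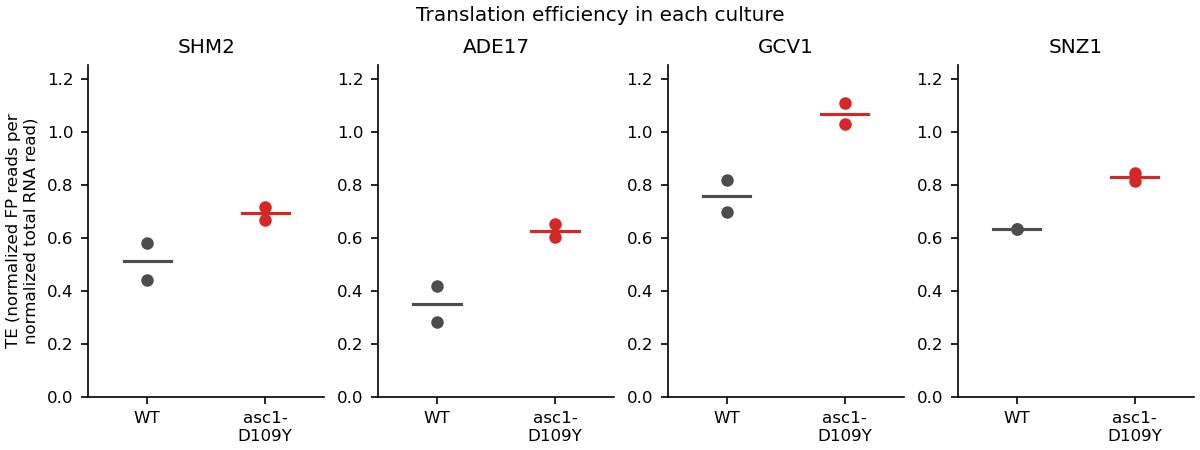
Translation efficiency, as normalized FP reads per normalized total RNA read, is shown for SHM2, ADE17, GCV1 and SNZ1 in each of 2 WT and 2 asc1-D109Y cultures, with bars for the means. The mutant cultures lie above the WT cultures in each panel, and the WT points of SHM2 and ADE17 lie farther apart than those of SNZ1.

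Without the culture term the smallest p values among genes with higher TE were those of MNL2 (log2 0.46), SNZ1, GCV1, YLR152C (0.41) and CIT2 (0.31), the peroxisomal citrate synthase. Among genes with lower TE they were those of GRX4 (-0.60), YGL176C (-0.76), AKR2 (-0.44), CWC27 (-0.46) and ECM25 (-0.30). None of these passed the adjustment. CIT2 had 5077 and 4803 normalized total RNA reads in WT and 4035 and 3891 in the mutant, with FP changed by -0.01. The amino acid lists had a TE median of -0.04 with 14 of 50 genes above 0, so that their total RNA changes were on the whole a little larger than their FP changes.

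Ribosomal protein genes are the largest group of short, highly translated mRNAs in yeast. None of 132 cytosolic ribosomal protein genes passed in FP, total RNA or TE, where 0.963%, 0.35% and 0% of all genes did. Counts of 0 among 132 genes are near those shares. FP changes of the ribosomal protein genes were nevertheless on one side of 0 for most members, with 124 of 132 below 0. Their median was -0.09 and their range -0.18 to 0.36, against a median of -0.00060 for all genes. The median stayed below 0 under the other scalings and without any one culture, between -0.06 and -0.11. In total RNA the median was -0.01 and turned to 0.06 without WT replicate 2 and to 0.05 without asc1-D109Y replicate 1. The TE median was -0.07, with 115 of 132 below 0, and lay at -0.02 without WT replicate 1 or asc1-D109Y replicate 2, at -0.12 without WT replicate 2 and at -0.11 without asc1-D109Y replicate 1. Mitochondrial ribosomal protein genes had medians of -0.04 in FP and 0.0010 in TE, and 54 ribosome assembly genes one of -0.06 in FP and of -0.06 in total RNA. No member of either list was called, which is near the share over all genes.

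Gene length went with small shifts of TE. Length was taken from start to stop codon in the reference annotation with any intron counted, so it is not the ORF length for genes with introns. Genes under 500 nt had a median TE change of -0.03, genes of 500 to 1000 nt -0.02, genes of 1000 to 2000 nt -0.0024 and genes of 2000 nt or more 0.03. The pairs of cultures of one number gave medians of -0.02 and -0.02 for the shortest genes and 0.03 and 0.02 for the longest. The total RNA medians ran the other way, from 0.02 for the shortest to -0.03 for the longest, and the FP medians lay between -0.0062 and 0.0030. These shifts are small beside the spread of single genes, whose quartiles were -0.10 and 0.09 in the shortest class.

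Factors that act on stalled ribosomes were read because the allele was found through no-go decay. None of 29 measured members of the ribosome quality control list passed in FP, total RNA or TE, where 0.963%, 0.35% and 0% of all genes did, so that a count of 0 in a list of this size is near the share over all genes. The list medians were -0.0060, -0.03 and 0.01. HEL2, the ubiquitin ligase that senses collided ribosomes, had an FP change of -0.05, DOM34, which splits stalled ribosomes, one of 0.02, and MBF1 one of 0.08. Among 15 closed-loop and eIF4F genes none passed, again near the share over all genes, with a median FP change of -0.05. Among 21 genes of eIF3, eIF2 and GCN4, GCN4 was the single call, against 0.881% of all genes called higher in FP.

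The same genes were then read in the other mutants of the experiment, each against the same WT libraries. In asc1-M1X the start codon of Asc1 is a stop codon, asc1-Null lacks the locus, and rpl23b-Null and rpp1a-Null lack genes of the large subunit, RPL23B and RPP1A. Since the WT libraries are shared, the values stand side by side and no relation between strains is drawn from them. Of the 43 genes that rose in FP in asc1-D109Y, 39 were called higher and 2 lower in asc1-M1X (26.9% and 25.5% of all genes), and 40 higher and 1 lower in asc1-Null (24.9% and 24.1%). In rpl23b-Null 5 were called higher and 34 lower (24.6% and 24.8% of all genes), and in rpp1a-Null 5 were called higher and 31 lower (21% and 20.4%). The median change of the 43 genes was 0.52 in asc1-D109Y, 1.02 in asc1-M1X, 1.04 in asc1-Null, -0.98 in rpl23b-Null and -0.93 in rpp1a-Null. In total RNA, of the 17 genes that rose, 15 were called higher and 1 lower in asc1-M1X (18.9% and 18.3% of all genes), and 15 and 1 in asc1-Null (17.5% and 15.1%). In rpl23b-Null 0 were called higher and 16 lower (11.7% and 12.5%), and in rpp1a-Null likewise 0 and 16 (13.2% and 15.4%).

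**Figure D5:**
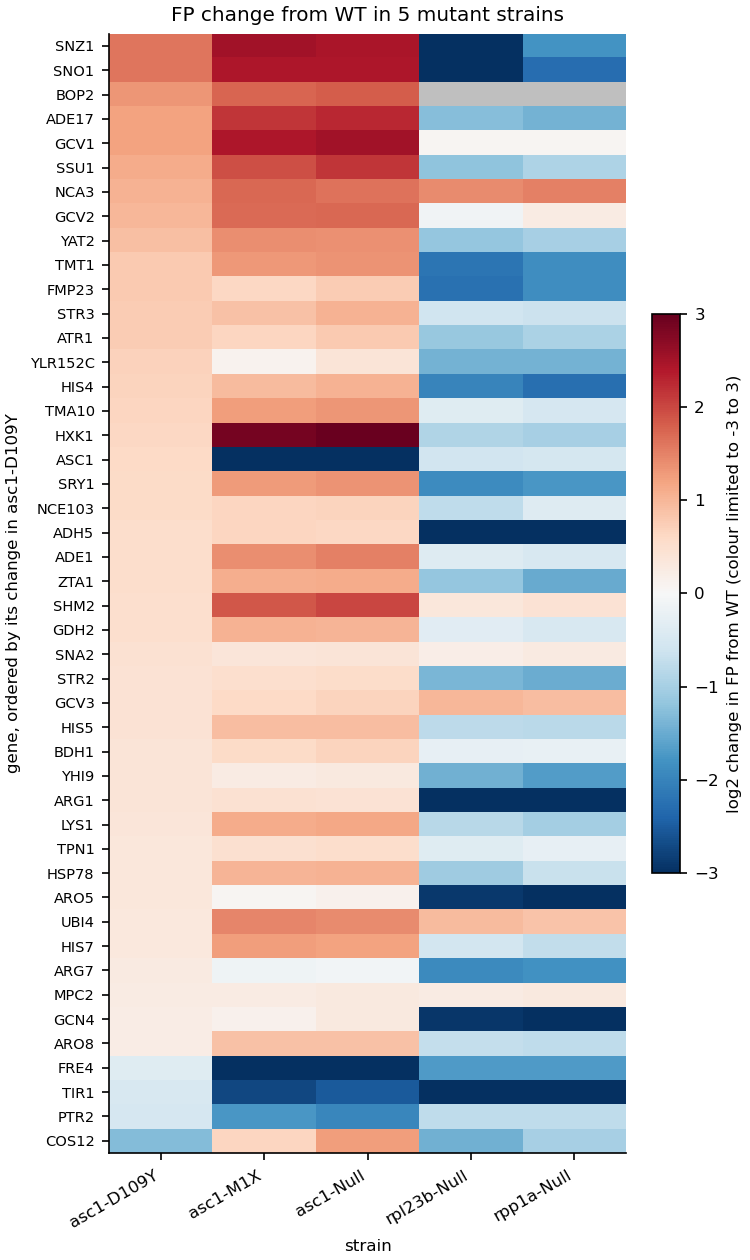
Rows are 46 of the 47 genes called in FP in asc1-D109Y, columns are 5 mutant strains, and colour gives the log2 change in FP from the shared WT libraries, limited to -3 to 3, with grey where a gene was not tested. The columns of asc1-D109Y, asc1-M1X and asc1-Null are red for most genes and paler in asc1-D109Y, and those of rpl23b-Null and rpp1a-Null are blue for most, with SHM2, GCV3, NCA3, UBI4 and MPC2 red in all 5.

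Single genes show the range. SNZ1 changed in FP by 1.61 in asc1-D109Y, 2.53 in asc1-M1X, 2.46 in asc1-Null, -3.76 in rpl23b-Null and -1.80 in rpp1a-Null. HIS4 gave 0.68, 0.94, 1.03, -1.99 and -2.27 in the same order, and ARG1 0.38, 0.46, 0.43, -3.83 and -4.02. For GCN4 the values were 0.23, 0.12, 0.28, -2.91 and -3.02 in FP, and between -0.09 and 0.07 in total RNA in all 5 strains. The glycine cleavage gene GCV1 gave 1.20, 2.43, 2.53, 0.06 and 0.06, and neither of its changes in the large-subunit mutants passed (adjusted p = 0.66 and 0.65). SHM2 rose in all 5 strains, by 0.51, 1.86, 2.00, 0.33 and 0.43. GCV3, NCA3, UBI4 and MPC2 also rose in all 5, and these are the 5 genes called higher in each of the large-subunit mutants.

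The asc1 mutants were compared with asc1-D109Y directly, with no WT library in the test. The asc1-D109Y libraries that picked the genes are still in it. That favours lower values in the other strains for genes that rose, and higher values for genes that fell. Between asc1-M1X and asc1-D109Y 51.7% of genes differed in FP and 34% in total RNA (17% in each direction), and between asc1-Null and asc1-D109Y 45.5% in FP and 26% in total RNA (13.6% higher and 12.4% lower in asc1-Null). Of the 43 genes that rose in FP in asc1-D109Y, 27 were higher still in asc1-M1X (26.3% of all genes were higher), 5 were lower (25.4%) and 11 did not differ by the test. Against asc1-Null 27 were higher (23.4%), 4 lower (22.1%) and 12 did not pass. SHM2 was 1.35 higher in asc1-M1X than in asc1-D109Y (adjusted p = 1.2e-17) and HXK1 2.26 higher (adjusted p = 5.9e-20). ARG1 differed by 0.08 (SE 0.045, adjusted p = 0.15), MPC2 by -0.01 (adjusted p = 0.92) and ADH5 by 0.11 (adjusted p = 0.15). Genes lower in asc1-M1X than in asc1-D109Y were ASC1, ARG7 (-0.40), YLR152C (-0.57), ARO5 (-0.26) and YHI9 (-0.13). In total RNA ARG1 was 0.31 lower in asc1-M1X (adjusted p = 0.0015) and 0.30 lower in asc1-Null (adjusted p = 0.022) than in asc1-D109Y, while HIS4 differed by 0.01 and 0.06 (adjusted p = 0.90 and 0.63).

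Lower genes also differed in size between the alleles. FRE4 changed in FP by -0.37 in asc1-D109Y, -3.12 in asc1-M1X and -3.02 in asc1-Null, TIR1 by -0.48, -2.73 and -2.52, and PTR2 by -0.51, -1.74 and -1.95. All 3 were lower in both of the other asc1 strains in the direct test. COS12 went the other way, with -1.29 in asc1-D109Y and 0.65 and 1.24 in asc1-M1X and asc1-Null, and was higher than in asc1-D109Y in the direct tests (adjusted p = 3.8e-07 in both).

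ASC1 shows how the strains differ at the locus itself. Its normalized total RNA reads were 15138 and 13873 in asc1-M1X, 71.9 and 133 in asc1-Null, 16760 and 17588 in rpl23b-Null and 16538 and 16002 in rpp1a-Null. With 24617 and 25314 in WT and 39521 and 42187 in asc1-D109Y, the total RNA of asc1-D109Y was the highest of the 6 strains and the only one above WT.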

How the data were processed

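The deposited values are read counts per ORF, without normalization. The authors made them from uniquely aligned reads (Tophat, Sigma1278b genome), with the first 30 codons of each ORF omitted. Reads of a second preparation of 2 FP libraries (WT replicate 1 and asc1-D109Y replicate 1) were pooled with the first by the authors. Of 5573 ORFs, 19 of the mitochondrial genome were left out here, and 5551 of the remaining 5554 matched a gene of the S288C reference R64, used for symbols and lengths. Per-sample columns of another library protocol, 8 in number, were not used, nor were the deposited scaled counts, RPKM values and fold changes.

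Counts were tested with edgeR 4.0.16 in R 4.3.3 (quasi-likelihood F test with TMM factors per library type, Benjamini-Hochberg adjusted p under 0.05), for genes with at least 128 reads over the libraries of a type. TE was tested as the interaction of strain and library type. Normalized reads used median-ratio factors over the 24 libraries within a type. DESeq2 1.42.0 was an alternative. FP and total RNA of one culture came from the same extract, and deviations from the group means correlated across 4871 genes with r = 0.39 in WT and 0.27 in asc1-D109Y. A culture term was therefore also fitted.

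On simulated counts over 4871 genes, with 200 genes changed in FP, edgeR recovered 84% of FP changes of 0.5 (log2) and 97% of changes of 1. In TE it recovered 57% and 95%, and the false calls were 9 in FP and 7 in TE. FP and total RNA were drawn independently there, unlike the libraries of one extract, and more genes were changed than were called here. The rates hold for that setting only and may be too high for these data, where 36 genes were above 0.5 in TE and none passed. Replicates differed beyond sampling noise, with chi-square per degree of freedom from 2.94 to 5.02. They were 2 per strain, so p-values measure the spread between these cultures only. The genes and the 41 gene lists were chosen with earlier results of these data known. Named genes were ASC1, genes called in both kinds of library, in each direction the 12 largest changes among those with the same sign in both same-numbered pairs, the TE genes called with the culture term and the 5 smallest p in each direction without it, and called list members with their neighbours in the pathway. Other called genes named, the genes of the ribosome quality control list and ARG1 and ADH5 in other strains were picked after their values were seen. The values of 1 gene called in FP are not reported here, though it is in the counts. No sequences are shown, since no sequence tables were used here. Plots were drawn with matplotlib 3.10.9.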

Additional observations from a re-analysis of the deposited data

How the results depend on the processing

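Of the 47 genes called in FP, 24 passed under every alternative that gave an adjusted p, and of the 18 called in total RNA ASC1, SNZ1 and SSU1 did so. None of these calls reversed its direction in its own kind of library under any alternative. Nor did the TE changes of the genes named for TE. The direction of other named changes, such as that of PCL5 in FP, was not followed. The FP count was 41 with median-ratio scaling, 48 with library size alone, 35 with DESeq2 and 35 with all 6 strains in the fit. The total RNA count was 28 with DESeq2, of which 18 were shared. With FP and total RNA in one fit, an analysis chosen after seeing the data, the counts were 33 in FP and 44 in total RNA. Leaving out a culture gave 39 to 111 calls in FP, 3 to 63 in total RNA and 0 in TE. By their labels the WT and asc1-D109Y cultures share only a number. Deviations from the group means nevertheless correlated between cultures of one number, with r = 0.19 in FP and 0.45 in total RNA. The main FP and total RNA fits leave that pairing out. With the replicate number as a block the counts were 186 in FP (132 higher and 54 lower) and 318 in total RNA (245 higher and 73 lower). They held all of the genes called without it. ADE17 and ADE1 were among those called in total RNA with the block (edgeR adjusted p = 2.29e-10 and 6.93e-11). With strain and replicate number both fitted to 2 libraries per strain, little is left to measure the spread of a gene. The size of these p-values is therefore no guide to certainty, and ADE17 differed by 0.12 and 0.53 in the same-numbered pairs. The culture block gave 4 calls in TE. For the direct differences from asc1-D109Y, the replicate block gave 1404 TE calls for asc1-M1X (829 without it), and 2457 total RNA and 1244 TE calls for asc1-Null (1347 and 414 without it). Leaving out a culture gave 2106 to 2252, 1184 to 1548 and 260 to 512 calls in FP, total RNA and TE for asc1-M1X, and 1720 to 2201, 910 to 1365 and 72 to 345 for asc1-Null. The cause of these differences was not tested. COS12 fell below the read minimum when any culture was left out, and DESeq2 gave no adjusted p for BOP2 and COS12 in FP. Genes near 50 reads per library, such as SNO1 and BOP2, are limited by depth.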

Other observations

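Nitrogen and amino acid uptake genes gave 1 call of 24 in FP, GDH2, against 0.881% of all genes called higher, while 19 of 24 members had values above 0 in FP (median 0.10) and 27 of 31 in total RNA (median 0.12), where 49.7% and 50.5% of all genes did. GAP1, the general amino acid permease, had an FP change of 0.99 (adjusted p = 0.051, edgeR) and a total RNA change of 0.40 (adjusted p = 0.50), and the ammonium permease MEP2 had 65.8 and 37.3 normalized FP reads in WT and 129.6 and 67.9 in asc1-D109Y (adjusted p = 0.25), a narrow gap between the strains. AGP1 had 0.32 and 0.39. Glycolysis and fermentation genes gave 1 call of 27, HXK1, with a median of -0.03, against 0.881% of all genes called higher. No TCA cycle, respiratory chain, proteasome, ergosterol, histone, pheromone response or filamentous growth gene passed in FP or total RNA. Trehalose, glycogen and general stress genes had no call either. Over all genes 0.963% passed in FP and 0.35% in total RNA, so counts of 0 in these lists are near that share. The trehalose, glycogen and general stress genes had a median of 0.09 in FP and 0.13 in total RNA, with 17 of 21 and 22 of 25 members above 0.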
